A study of Mus musculus with 15 samples.

Results

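The aquaporins Aqp1, Aqp3, Aqp5, Aqp9 and Aqp11 were examined in RNA-Seq libraries of NMuMG cells, an epithelial line from the mouse mammary gland. These 5 genes were taken by gene name from the 13893 genes listed in the first dataset and the 15023 listed in the second, and they were selected because Aqp5 and Aqp9 were higher after PCBP1 knockdown and stood differently in the knockouts. For Aqp5 and Aqp9 the levels and fold changes are therefore given as a description with no p value, and nothing is read from counts of calls that include them. All 5 were listed in the second dataset and 4 in the first, where Aqp3 was not analysed here. Of the listed members, 4 in each dataset passed a filter on low values (a mean of at least 0.5 CPM) and entered the fits, with Aqp3 below the filter.

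The second dataset compared 2 samples of NMuMG cells without treatment (control NMuMG, wild type) with 2 samples carrying an shRNA against PCBP1, an RNA-binding protein. The first dataset held 11 cell lines that all carried the PCBP1 shRNA. They were 4 shPCBP1 lines (an unaltered one plus CT clones 1 to 3, which received Cas9 without a gene-specific guide), FAM3C KO clones 1 to 3 (FAM3C -/-), LIFR KO clones 1 to 3 (LIFR -/-) and 1 FAM3C/LIFR double KO. Each knockout was a clone grown from diluted cells after CRISPR-Cas9 deletion, with 1 RNA sample per line, so that replicates were clones and p values measured only the spread between these lines. Whether the samples of the second dataset came from separate cultures was not given in the sources used here. The labels give no treatment for the controls of the second dataset, whereas the study's text speaks of cells with a scrambled shRNA, so whether the knockdown comparison includes an effect of carrying a vector cannot be told. The question put to the data was what FAM3C, a secreted factor, and LIFR, the receptor of leukaemia inhibitory factor, contributed to expression in PCBP1-depleted cells. Levels are given in CPM (a gene's reads relative to all reads counted in that library) and fold changes as log2 differences of log2(CPM + 0.1) fitted with limma, a scale that understates the change of low genes.

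Aquaporins are channel proteins of cell membranes through which water passes along osmotic gradients. Aqp1 and Aqp5 are classical water channels. Aqp1 is abundant in kidney tubule, red cells and capillary endothelium, and Aqp5 lies on the apical side of secretory glands such as the salivary gland. Aqp3 and Aqp9 are aquaglyceroporins, which also pass glycerol, and Aqp9 takes glycerol into the liver. Aqp11 is a divergent member that resides mainly on intracellular membranes of the endoplasmic reticulum. In epithelia, these channels set how easily water crosses the cell layer and how fast a cell changes volume.

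The members lie on 5 different chromosomes of GRCm38 (GENCODE M21). Aqp1 (ENSMUSG00000004655) occupies chromosome 6 from 55336432 to 55348555 on the plus strand. Aqp3 (ENSMUSG00000028435) lies on chromosome 4 from 41092722 to 41098183 on the minus strand, and Aqp11 (ENSMUSG00000042797) on chromosome 7 from 97724006 to 97738289 on the minus strand. Aqp5 (ENSMUSG00000044217) extends from 99590782 to 99594829 on the plus strand of chromosome 15. Aqp9 (ENSMUSG00000032204) extends from 71110659 to 71168682 on the minus strand of chromosome 9. It overlaps the antisense gene Gm32511 (71163794 to 71208124, plus strand) and the processed pseudogene Gm47268 (71126842 to 71127544). Whether the counting used strand was not given in the sources used here, so reads of Aqp9 and of these genes could be mixed.

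The 250 bases before the RefSeq transcription starts (GRCm38.p6, both strands) were read for the members to describe the sequence from which these transcripts begin. The elements searched were CANNTG (the E-box, bound by basic helix-loop-helix and Snail family factors) and TTCNNNGAA (the element bound by STAT factors). Both motifs read the same on either strand and were counted wherever their letters occurred. An E-box stood in 66.2% of 32851 mouse promoter windows of the same length, and a STAT element in 7.02%. None of the 6 windows of the members held TTCNNNGAA. Aqp1, Aqp5 and Aqp11 held 1 E-box each and Aqp3 held 2. The Aqp9 window at the upstream start held 0, and the one at the downstream start held 3. The windows of Aqp1 and of the downstream Aqp9 start are shown because both genes took different levels in the compared cells and neither window overlaps an annotated exon, with E-boxes in capitals. The first is chr6:55336049-55336298 on the plus strand and the second chr9:71162634-71162883 on the minus strand, each written 5′ to 3′.
Aqp1: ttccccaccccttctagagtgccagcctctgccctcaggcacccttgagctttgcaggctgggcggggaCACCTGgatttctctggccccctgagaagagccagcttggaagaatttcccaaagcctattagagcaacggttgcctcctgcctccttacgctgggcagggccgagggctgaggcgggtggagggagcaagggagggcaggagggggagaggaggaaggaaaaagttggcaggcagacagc
Aqp9: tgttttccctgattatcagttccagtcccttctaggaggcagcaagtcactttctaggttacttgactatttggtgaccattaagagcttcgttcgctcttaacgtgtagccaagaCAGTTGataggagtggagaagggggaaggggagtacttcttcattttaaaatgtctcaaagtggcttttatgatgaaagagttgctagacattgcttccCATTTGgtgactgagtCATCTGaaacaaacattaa
The windows differed in base composition. The Aqp5 window was 78.4% G and C with 38 CpG dinucleotides, more GC-rich than 98.1% of all windows, and 246 of its bases lie in an exon that GENCODE annotates for a longer transcript. The Aqp1 window was 62.0% G and C with 5 CpG, and the Aqp9 windows were 40.4% and 41.6% with 1 and 3 CpG, against a median of 52.4% and 6 CpG over all windows. The longest transcripts followed the same order, with 64.0% G and C in Aqp5, 54.9% in Aqp1 and 47.2% in Aqp9.

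The libraries were checked before the members were compared. In the second dataset Pcbp1 was at 287 and 312 CPM in control NMuMG and fell to 14.1 and 14.2 CPM with the shRNA. Fam3c was at 26.4 to 42.9 CPM in FAM3C KO and 47.0 to 59.4 CPM in shPCBP1, with no overlap, whereas Lifr was at 14.6 to 34.9 CPM in LIFR KO and 25.8 to 40.2 CPM in shPCBP1, with overlap, so that the transcript level did not mark the LIFR KO clones. In the first dataset the steps between low values implied totals of 16031859 to 46901675 reads per library, whereas no depth could be read from the values of the second dataset. Clones 2 and 3 of LIFR KO and the double KO had libraries that stood apart. In them the difference from the shPCBP1 mean fell with the GC content of the gene (Spearman correlation across 12603 genes of -0.76 to -0.70, against -0.29 to 0.24 in the other 8 libraries; genes are not independent replicates), and mitochondrial genes took 7.16% to 8.58% of the listed CPM, against 3.14% to 4.06%. In these 3 libraries the knockout and this difference cannot be told apart, so values for LIFR KO are also given after a GC correction and for clone 1. The double KO was left out of that correction, so its values are as deposited throughout. Of 12 epithelial markers, 8 were listed in each dataset with summed levels of 1228 to 3186 CPM in the first and 2776 to 3007 CPM in the second, while Epcam, Cldn3 and Esrp1 were not listed in either.

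On PCBP1 knockdown the aquaporins differed in direction, and Aqp5 and Aqp9 had been selected for being higher. Aqp1, the most abundant member in control cells, fell about 8-fold, while the levels of Aqp5 and Aqp9 were higher and that of Aqp11 was almost equal. Aqp1 stood at 88.8 and 86.0 CPM in the control samples and at 11.6 and 10.6 CPM in the shPCBP1 samples. The control samples lay far above the knockdown samples, and the pairs differed internally by little. The means were 87.4 ± 1.93 CPM and 11.1 ± 0.711 CPM (SD, n = 2 each), a ratio of 7.87. The fitted log2 fold change of Aqp1 was -2.97 (standard error 0.0461, adjusted p = 2.03e-12, limma). It lay between -3.03 and -2.87 under the 11 alternative settings, with an adjusted p from limma of at most 9.16e-05 where no sample was left out. The limma p draws on the spread of other genes. A two-sided exact permutation test of Aqp1 gave p = 0.333, the smallest value possible for 2 against 2 samples.

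Aqp5 was listed at 0.283 and 0.415 CPM in the control samples and at 6.11 and 5.27 CPM in the shPCBP1 samples. Both knockdown samples were above both control samples, and the mean went from 0.349 ± 0.0931 to 5.69 ± 0.597 CPM (SD, n = 2 each). The ratio of the means was 16.3 and the fitted log2 fold change 3.70 (standard error 0.167). With a pseudocount of 1 CPM in place of 0.1, the latter was 2.31. Aqp9 was at 0.248 and 0.509 CPM in control and at 0.663 and 0.795 CPM in shPCBP1. The groups did not overlap, but the gap between the nearest samples was smaller than the difference between the control samples. The means were 0.379 ± 0.185 and 0.729 ± 0.0930 CPM (SD, n = 2 each), a ratio of 1.93. The fitted log2 fold change of Aqp9 was 0.84 (standard error 0.250) and it was 0.30 after quantile normalization.

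Aqp11 was at 4.39 and 4.30 CPM in control and at 4.21 and 4.56 CPM in shPCBP1, so that the shPCBP1 samples lay on either side of the controls. The fitted difference in Aqp11 was 0.01 on the log2 scale (standard error 0.0952; adjusted p = 0.906, limma). Aqp3 was at 0.0178 CPM in one control sample, at the value given for no reads in the other, and at 0.0897 and 0.0555 CPM in the shPCBP1 samples. These levels were below the filter, and no fold change is given. Of the 4 members tested, 3 passed an adjusted p under 0.07, where 80.1% of the 11384 genes tested passed. The count was fixed in part by the selection of Aqp5 and Aqp9 and lies near the share of all genes.

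**Figure D1:**
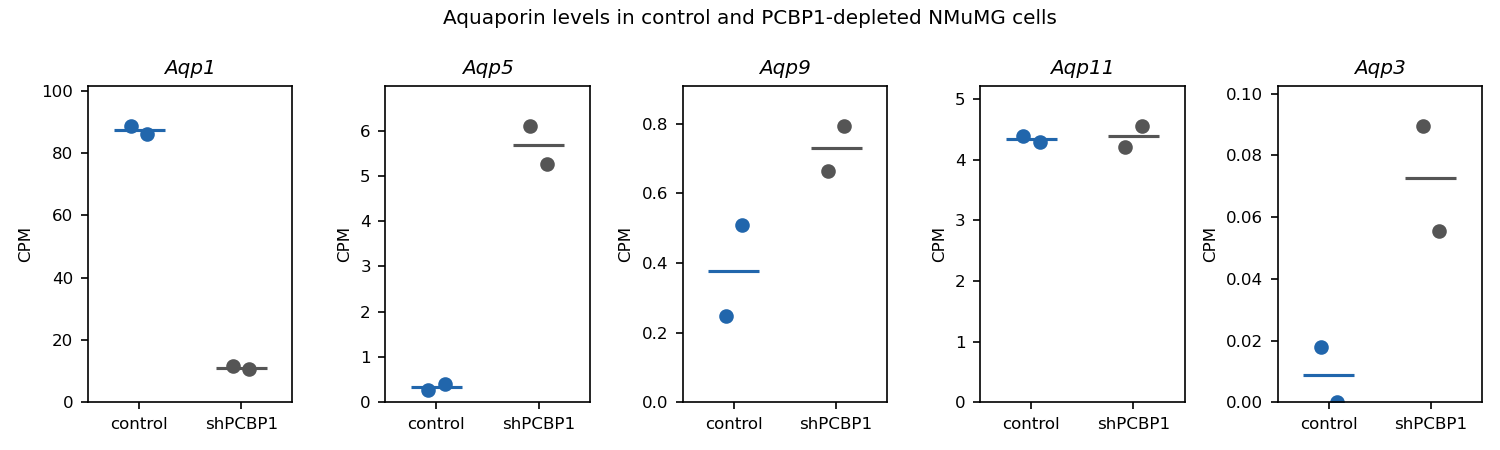
CPM of each aquaporin in control NMuMG and shPCBP1 cells of the second dataset, with 1 point per sample, a line at the mean of 2 samples, and a vertical axis of its own for each gene. Aqp1 drops from 88.8 and 86.0 to 11.6 and 10.6 CPM, Aqp5 lies at 5.27 CPM or more only in shPCBP1, and the Aqp11 samples lie between 4.21 and 4.56 CPM.

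Levels of different genes were compared per length, as CPM per kb of the longest annotated transcript. In control NMuMG, Aqp1 stood at 33.3 CPM per kb, Aqp11 at 0.749, Aqp5 at 0.194 and Aqp9 at 0.137. The samples of Aqp5 (0.158 and 0.231 CPM per kb) and Aqp9 (0.0897 and 0.184) overlapped, so their order is not given. In shPCBP1 of the second dataset the order was Aqp1 (4.23 CPM per kb), Aqp5 (3.17), Aqp11 (0.757) and Aqp9 (0.264), with no overlap between neighbours. Aqp1 made up 97.1% and 96.6% of the summed level per kb of the 4 members in the control samples and 50.3% and 50.2% in the shPCBP1 samples. Aqp5 made up 0.453% and 0.681% in control and 38.7% and 36.4% in shPCBP1. Aqp1 thus remained the larger share in shPCBP1, with Aqp5 next. The summed level fell from 34.8 and 33.9 to 8.79 and 8.04 CPM per kb.

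Markers of other cells were set beside these values, since in bulk samples fewer cells of a type and less RNA per cell cannot be told apart. Of 6 endothelial markers 5 were listed, with sums of 0.0194 and 0.107 CPM in control and 0.377 and 0.389 CPM in shPCBP1. Kdr and Tek were at the value for no reads in both control samples, and 0 of the endothelial markers reached the filter in this comparison. Whether other cells contributed to the level of Aqp1 was not tested. Of 5 erythroid markers 3 were listed, with sums of 0.478 to 0.569 CPM in control and 0.391 to 0.416 CPM in shPCBP1. On knockdown 80.1% of all genes tested passed the threshold, 4792 higher and 4331 lower. The 8 mesenchymal markers tested, out of 12, all rose on knockdown (median log2 fold change 1.73, against 0.03 over all genes). Twist2 (4.47), Fn1 (3.45), Snai1 (3.33) and Snai2 (1.93), which encode fibronectin and regulators of the epithelial to mesenchymal transition, had the largest log2 fold changes. The summed level of the 11 listed mesenchymal markers was 536 to 557 CPM in control and 1320 to 1354 CPM in shPCBP1. Of the 6 epithelial markers tested, 5 fell and 1 rose, and Krt7 (-3.49) and Ocln (-1.21) had the largest log2 fold changes. Of 12 luminal and secretory markers, 4 were tested, with 2 higher (Gata3 at 2.38 and Foxa1 at 2.34 on the log2 scale) and 2 lower (Csn3 at -0.92 and Muc1 at -0.85). The part of these changes in the aquaporin levels was not tested.

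Aqp1 was low in all knockout clones of FAM3C and in part of the LIFR KO clones. In the first dataset the unaltered shPCBP1 line held 27.3 CPM, and the CT clones held 23.0, 24.0 and 23.1 CPM. The 4 shPCBP1 lines thus lay close together, at 24.4 ± 2.03 CPM (SD, n = 4). Clones 1, 2 and 3 of FAM3C KO held 3.45, 0.720 and 5.84 CPM of Aqp1. Every FAM3C KO clone was below every shPCBP1 line, and the clones differed among themselves by several-fold. The ratio of the shPCBP1 mean to the FAM3C KO mean (3.34 ± 2.56 CPM, SD, n = 3) was 7.30, and the fitted log2 fold change was -3.24 (standard error 0.760). A two-sided exact permutation test of Aqp1 gave p = 0.0286, the smallest value possible for these group sizes. Its adjusted p in limma was 0.139, above the threshold of 0.07. With the 2 groups fitted alone, the log2 fold change of Aqp1 was the same and the adjusted p from limma was 0.017. The call was also made after the GC correction (-3.19, adjusted p = 0.0600, limma) and when clone 1 stood alone for LIFR KO (adjusted p = 0.0163, limma).

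Clones 1, 2 and 3 of LIFR KO held 16.3, 3.20 and 1.59 CPM of Aqp1. All were below the shPCBP1 lines, but clone 1 lay nearer to those lines than to clones 2 and 3. The mean was 7.01 ± 8.04 CPM (SD, n = 3) and the ratio of the means 3.47. The log2 fold change of Aqp1 was -2.44 (standard error 0.760; adjusted p = 0.0816, limma; exact permutation test, two-sided, p = 0.0286). After the GC correction it was -2.0 (adjusted p = 0.182, limma), and with clone 1 alone it was -0.58 (adjusted p = 0.853, limma). Without clone 1 it was -3.37 and passed the threshold (adjusted p = 0.00203, limma), and without clone 3 it was -1.73. The direct difference between FAM3C KO and LIFR KO in Aqp1 was -0.80 (standard error 0.813; adjusted p = 0.505, limma), with overlap between the groups. The exact permutation test of this difference gave p = 0.60, with 0.10 the smallest possible for 3 against 3. Its direction rested on single clones, being 0.03 without FAM3C KO clone 2 and 0.13 without LIFR KO clone 1, while it was -2.66 with clone 1 alone for LIFR KO (adjusted p = 0.0997, limma). In the double KO, Aqp1 was at 2.25 CPM, within the range of the FAM3C KO clones and below every shPCBP1 line. The same 4 shPCBP1 lines served as the controls of both knockouts. Endothelial markers, of which 3 of 6 were listed, summed to 0.624 to 1.44 CPM in shPCBP1, 0.769 to 2.24 CPM in FAM3C KO and 0.751 to 1.12 CPM in LIFR KO. These ranges overlapped, and Kdr, Emcn and Vwf were not listed.

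Aqp5 was highest in the unaltered shPCBP1 line, at 4.99 CPM, and the CT clones held 3.11, 2.87 and 2.58 CPM. The FAM3C KO clones held 1.99, 1.80 and 2.73 CPM of Aqp5, and the LIFR KO clones held 2.36, 1.83 and 1.11 CPM. The LIFR KO clones lay below all shPCBP1 lines, whereas FAM3C KO clone 3 lay within their range. The shPCBP1 mean of 3.39 ± 1.09 CPM (SD, n = 4) compared with 2.17 ± 0.490 CPM for FAM3C KO (SD, n = 3) and 1.77 ± 0.625 CPM for LIFR KO (SD, n = 3). The fitted log2 fold change of Aqp5 was -0.59 (standard error 0.303) in FAM3C KO and -0.91 (standard error 0.303) in LIFR KO. After the GC correction these were -0.53 and -0.04. The largest shift was in LIFR KO clones 2 and 3, whose log2 differences from the shPCBP1 mean went from -0.81 to 0.45 and from -1.48 to -0.17. In clone 1 the difference was -0.46 as deposited and -0.40 after the correction. The difference of FAM3C KO from LIFR KO in Aqp5 was 0.32 as deposited and -0.49 after the correction, so its direction depended on the treatment of GC content. The double KO was at 1.45 CPM.

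Aqp9 took opposite positions in the knockouts. The unaltered shPCBP1 line held 0.624 CPM, and the CT clones held 0.213, 0.485 and 0.653 CPM. Aqp9 was at 1.90, 0.960 and 1.42 CPM in the FAM3C KO clones, above every shPCBP1 line. In the LIFR KO clones it was at 0.107, 0.0832 and 0.0429 CPM, below every shPCBP1 line, with clone 3 at the lowest value of its library. The shPCBP1 mean of 0.494 ± 0.201 CPM (SD, n = 4) lay between 1.43 ± 0.472 CPM for FAM3C KO (SD, n = 3) and 0.0778 ± 0.0325 CPM for LIFR KO (SD, n = 3). The fitted log2 fold change of Aqp9 was 1.40 (standard error 0.400) in FAM3C KO and -1.68 (standard error 0.400) in LIFR KO, and the direct difference was 3.07 (standard error 0.427). After the GC correction these were 1.42, -1.61 and 3.02, so that the positions of Aqp9 moved little with GC content. LIFR KO clones 1, 2 and 3 stood at -1.44, -1.62 and -1.98 from the shPCBP1 mean on the log2 scale. All 3 clones held Aqp9 at no more than 2 times the lowest value of their library. At such values the pseudocount of 0.1 CPM keeps the log2 values close together, so nothing is read from their likeness.

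The Aqp9 values rest on few reads. Each was a whole multiple of the lowest value of its library. The multiples were 10, 10, 12 and 19 in the shPCBP1 lines, 43, 24 and 37 in the FAM3C KO clones, and 2, 2 and 1 in the LIFR KO clones. The values do not tell whether the lowest one stands for no reads or for 1 read. The 3 LIFR KO libraries held 2 Aqp9 reads in all under the first reading and 5 under the second, against 47 or 51 in the 4 shPCBP1 lines and 101 or 104 in FAM3C KO. The double KO, which lacks both genes, was at 1.50 CPM, or 32 times its lowest value, within the range of the FAM3C KO clones and above all 3 LIFR KO clones. The 4 immune markers listed in the first dataset had sums of 10.4 to 12.9 CPM in shPCBP1, 8.69 to 14.1 in FAM3C KO and 6.96 to 13.2 in LIFR KO. These ranges overlapped, and Ptprc, Adgre1 and Cd3e were not listed.

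Aqp11 showed no difference beyond the spread between lines. It was at 11.4, 11.2, 10.8 and 11.4 CPM in the shPCBP1 lines (unaltered, then CT clones 1 to 3), at 12.5, 10.2 and 10.9 CPM in the FAM3C KO clones and at 12.5, 14.2 and 9.13 CPM in the LIFR KO clones. The shPCBP1 lines lay within the range of both sets of knockout clones. The log2 fold change of Aqp11 was -0.00 (standard error 0.155; adjusted p = 0.996, limma) in FAM3C KO and 0.07 (standard error 0.155; adjusted p = 0.765, limma) in LIFR KO. The difference between the knockouts in Aqp11 was -0.07 (standard error 0.166; adjusted p = 0.784, limma). The exact permutation tests, two-sided, gave p = 0.971, 0.629 and 0.80 in the same order. The double KO was at 9.46 CPM.

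Of the 4 members tested in the first dataset, 0 passed the threshold in FAM3C KO against shPCBP1, where 0.309% of the 12621 genes tested passed. In LIFR KO against shPCBP1 1 member passed (Aqp9), against 6.47% of genes, and in FAM3C KO against LIFR KO 1 passed (Aqp9), against 8.28%. Aqp9 was selected on these comparisons, and nothing is read from these counts. The shares of all genes depended on the processing. They were 1.87%, 0.309% and 0.571% in the same order after the GC correction, with 1, 0 and 1 members, and with 2 groups fitted alone 1040, 34 and 0 of the 12621 genes passed, with 1, 0 and 0 members. Of Aqp1 and Aqp11, Aqp1 was under an unadjusted p of 0.05 in limma against shPCBP1 in both knockouts, where 10.2% of genes in FAM3C KO and 35.7% in LIFR KO were. Over all genes the median log2 fold change was -0.16 in LIFR KO and -0.01 in FAM3C KO. After median-ratio rescaling, which brought the LIFR KO median to 0.002, the log2 fold change of Aqp1 in LIFR KO was -2.28 and that of Aqp9 was -1.59.

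**Figure D2:**
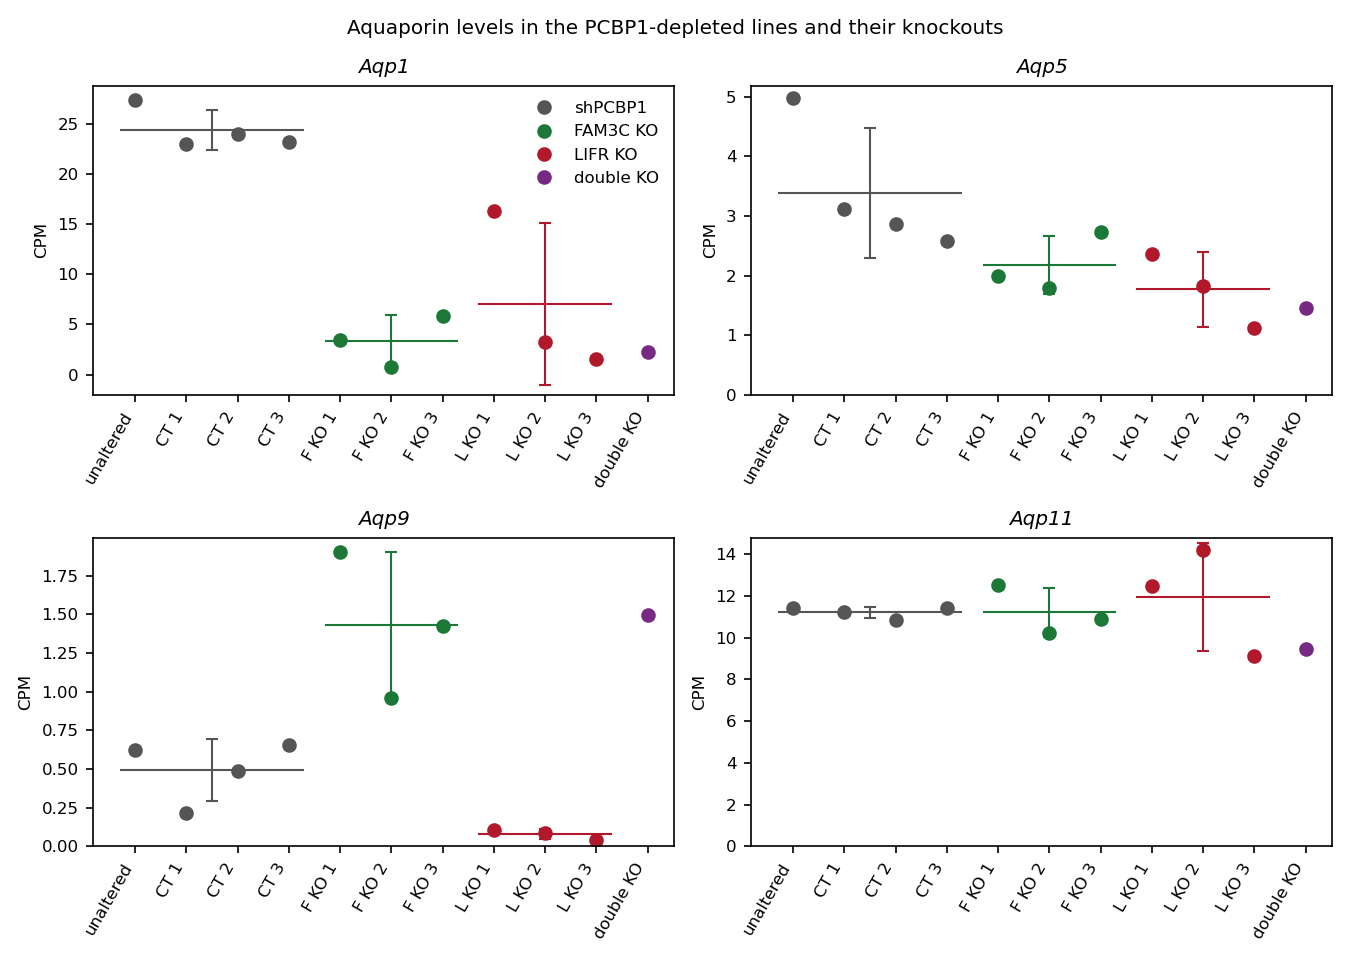
CPM of 4 aquaporins in the 11 lines of the first dataset, with 1 point per line, a horizontal line at the group mean and bars of 1 SD (F KO, FAM3C KO; L KO, LIFR KO; the double KO is a single line). Aqp1 is below 6 CPM in all knockouts but LIFR KO clone 1 (16.3 CPM), and Aqp9 is above the shPCBP1 lines in FAM3C KO and the double KO and below them in LIFR KO.

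**Figure D3:**
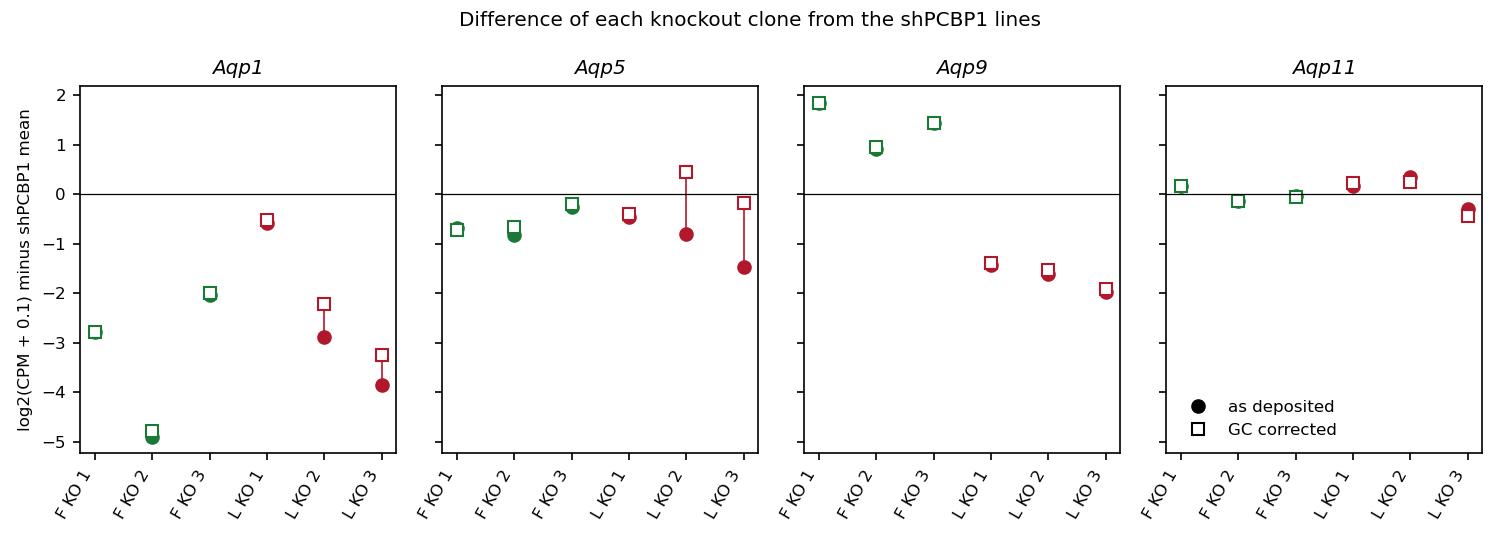
Difference of each knockout clone from the mean of the 4 shPCBP1 lines on the log2(CPM + 0.1) scale, as deposited (filled circles) and after the GC correction (open squares). Aqp5 moves from -0.81 to 0.45 in LIFR KO clone 2 and from -1.48 to -0.17 in clone 3, whereas the Aqp9 points move by little.

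The order of the members also differed between the lines. In shPCBP1 of the first dataset, Aqp1 was highest at 9.27 CPM per kb, Aqp11 (1.93 CPM per kb) and Aqp5 (1.89) overlapped, and Aqp9 was lowest at 0.179. In FAM3C KO, Aqp1 (1.27 CPM per kb, from 0.274 to 2.22) overlapped with Aqp11 (1.94, from 1.77 to 2.16), with Aqp5 (1.21, from 1.00 to 1.52) and with Aqp9 (0.517, from 0.347 to 0.689). Aqp11, Aqp5 and Aqp9 did not overlap with each other there. In LIFR KO, Aqp1 (2.67, from 0.604 to 6.19) overlapped with Aqp11 (2.06) and Aqp5 (0.984), and Aqp9 was lowest at 0.0281 CPM per kb. Aqp1 made up 67.7% to 71.5% of the summed level in the shPCBP1 lines, 8.09% to 36.2% in FAM3C KO and 22.3% in the double KO. Aqp5 made up 11.5% to 18.1% in those shPCBP1 lines. In LIFR KO clones 1 to 3 Aqp1 made up 63.8%, 25.8% and 21.5%. Aqp9 made up 8.38% to 13.1% in FAM3C KO and 14.1% in the double KO, against 0.618% to 1.90% in shPCBP1 and 0.400% to 0.637% in LIFR KO. The 2 datasets were normalized separately, so levels are not compared between them.

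**Figure D4:**
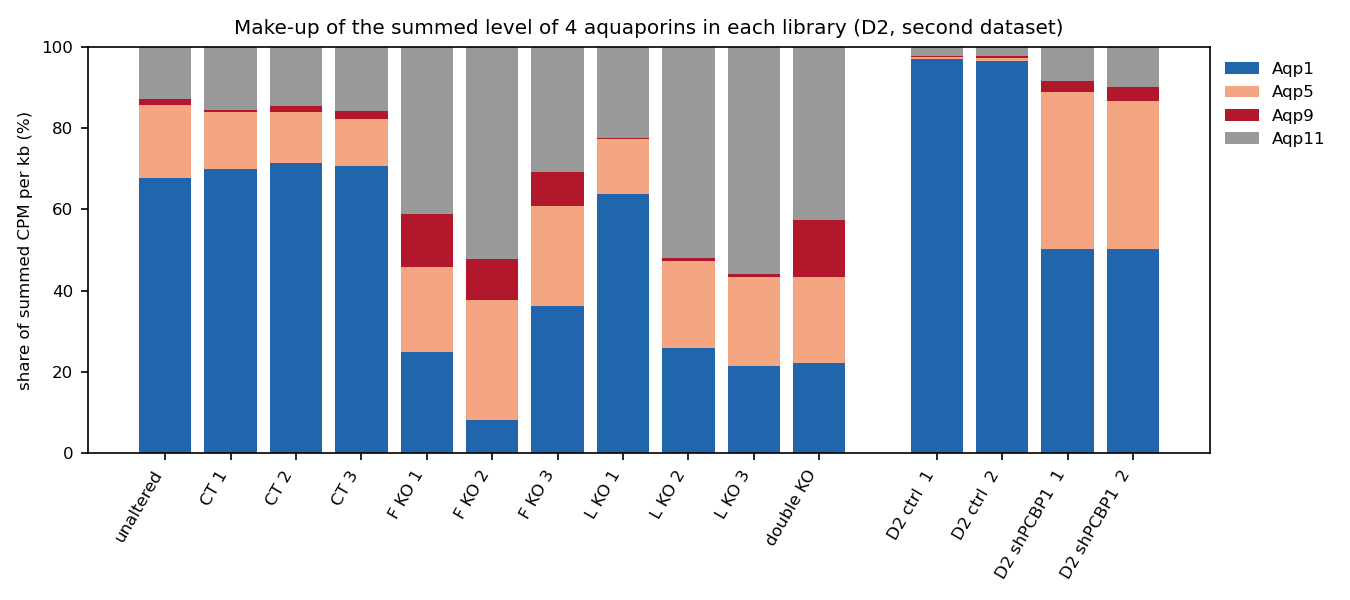
Share of each aquaporin in the summed CPM per kb of Aqp1, Aqp5, Aqp9 and Aqp11 in every library, with the second dataset (D2) at the right. Within the second dataset Aqp1 makes up 97.1% and 96.6% in the control samples and 50.3% and 50.2% in the shPCBP1 samples. Within the first dataset it makes up 67.7% to 71.5% in the shPCBP1 lines and 8.09% to 36.2% in the FAM3C KO clones.

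The other aquaporins were near the limit of detection. Of 7 looked for, Mip (lens aquaporin), Aqp7 (the adipocyte glycerol channel) and Aqp8 were listed in the first dataset, and Aqp7 and Aqp8 in the second. Mip was at 0.344 to 0.853 CPM in shPCBP1, 0.320 to 0.399 CPM in FAM3C KO and 0.472 to 0.624 CPM in LIFR KO. The Mip values of FAM3C KO overlapped with those of shPCBP1 and lay below those of LIFR KO (log2 fold change -0.59, standard error 0.326, adjusted p = 0.604, limma, for FAM3C KO against shPCBP1). Aqp7 did not exceed 0.538 CPM in any library of the first dataset. Aqp8 was at 0.133 to 0.480 CPM in FAM3C KO, above the 0.0640 to 0.125 CPM of shPCBP1, and at 0.0416 CPM or more in LIFR KO, overlapping with both. In the second dataset Aqp7 was at 0.0755 CPM or less and Aqp8 at 0.222 to 0.302 CPM. Aqp7, Aqp8 and the members of lowest level were not tested where they fell below the filter.

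Genes that act with these channels were described as lists. Of 20 cell volume and osmolyte genes, 17 were tested in the PCBP1 comparison, where 80.1% of all genes passed. Past the threshold 7 were higher and 8 lower. The median log2 fold change of the 17 was -0.03, against 0.03 over all genes. Lrrc8e, a subunit of the volume-regulated anion channel, rose by 3.68 on the log2 scale, from 0.456 to 7.04 CPM. Akr1b3, the aldose reductase that makes sorbitol, fell by 1.37, and Nfat5, the transcription factor of the response to hypertonicity, fell by 1.20. Slc12a7, a potassium-chloride cotransporter, fell by 0.95. Against shPCBP1, 0 of 19 passed in FAM3C KO and in LIFR KO, where 0.309% and 6.47% of all genes passed. Under an unadjusted p of 0.05 (limma) were 1 and 6 of the 19, against 10.2% and 35.7% of all genes. Between the knockouts 8.28% of all genes passed. There Slc12a4, another potassium-chloride cotransporter, was higher in FAM3C KO (0.84, adjusted p = 0.0477, limma) and Slc5a3, the inositol transporter, was lower (-0.52, adjusted p = 0.0531, limma). After the GC correction these differences were 0.32 and -0.33 with adjusted p of 0.287 and 0.247 (limma). Slc6a6, the taurine transporter, was then the only gene of the list past the threshold (-0.33, adjusted p = 0.066, limma), where 0.571% of all genes passed.

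Of 18 glycerol handling genes, 16 were tested in the PCBP1 comparison, where 80.1% of all genes passed. Past the threshold 6 were higher and 9 lower, and the median log2 fold change of the 16 was -0.12. Lpin3 (-2.97) and Lpin1 (-1.23), phosphatidate phosphatases of glycerolipid synthesis, Gpd1 (-2.45), the cytosolic glycerol-3-phosphate dehydrogenase, and Gpam (-1.05), which acylates glycerol-3-phosphate, had the largest log2 fold changes, all downward. In FAM3C KO 0 of 15 passed, where 0.309% of all genes did. Of the 15, 1 was under an unadjusted p of 0.05 (limma), against 10.2% of all genes. In LIFR KO 2 of 15 passed, where 6.47% of all genes did, Gpd1 (-1.03, adjusted p = 0.0388, limma) and Dgat1 (-0.69, adjusted p = 0.0388, limma), the latter an enzyme of triglyceride synthesis. After the GC correction they were -0.50 and -0.17, with adjusted p of 0.118 and 0.398 (limma). Between the knockouts, where 8.28% of all genes passed and 862 of those 1045 genes were higher in FAM3C KO, 5 of 15 passed, all higher in FAM3C KO, led by Dgat2 (1.02), Agpat2 (0.92), Gpd1 (0.82) and Dgat1 (0.72), and 0 passed after the correction.

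Marker lists were set beside the first dataset as well. The 8 listed epithelial markers summed to 2480 to 3186 CPM in shPCBP1, 2009 to 3042 CPM in FAM3C KO and 1228 to 2112 CPM in LIFR KO, so that LIFR KO lay below shPCBP1. The 11 listed mesenchymal markers summed to 1804 to 2049 CPM in shPCBP1, to 2082 to 2242 CPM in FAM3C KO, just above, and to 1303 to 1943 CPM in LIFR KO. The 5 listed luminal and secretory markers summed to 78.6 to 114.8 CPM in shPCBP1, to 59.4 to 61.9 CPM in FAM3C KO, below shPCBP1, and to 58.4 to 93.9 CPM in LIFR KO. Of the 9 mesenchymal markers tested, 0 passed in either knockout against shPCBP1. Over all genes 0.309% passed in FAM3C KO and 6.47% in LIFR KO. In each knockout 3 of the 9 were under an unadjusted p of 0.05 (limma), against 10.2% of all genes in FAM3C KO and 35.7% in LIFR KO. Between the knockouts 8.28% of all genes passed, and 862 of those 1045 were higher in FAM3C KO. Fn1 (0.91) was among the genes higher in FAM3C KO than in LIFR KO. Of the 7 epithelial markers tested, Krt18 passed in LIFR KO (-0.73 on the log2 scale, and -0.22 with an adjusted p of 0.541 from limma after the GC correction) and in FAM3C KO against LIFR KO (0.86). Of the 4 luminal and secretory markers tested, Gata3 was higher in FAM3C KO than in LIFR KO (0.78). After the GC correction the differences between the knockouts were 0.57 for Fn1, 0.39 for Krt18 and 0.62 for Gata3. Their adjusted p were 0.148, 0.255 and 0.106 (limma), above the threshold. Muc1 was lower in FAM3C KO than in shPCBP1 after the correction (-0.80, adjusted p = 0.0455, limma), where 1.87% of all genes passed. The part of these differences in the aquaporin levels was not tested. Of the immune, endothelial, erythroid and myoepithelial markers, 1 or 2 of each list were tested in the first dataset and 0 passed. Between the knockouts 1 myoepithelial marker was under an unadjusted p of 0.05 (limma), as were 29.3% of all genes. Of the adipocyte markers 0 could be tested.

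The surroundings of the members were examined next. Aqp5 lies in a cluster of genes on chromosome 15, and 11 other listed genes start within 250 kb of its start. On PCBP1 knockdown 10 of these were tested, with a median log2 fold change of 0.20. Past the threshold 6 were higher and 3 lower, where 80.1% of all genes passed. Nckap5l, at -169 kb from the start of Aqp5, rose by 2.73, and Gpd1, at 127 kb on the other side, fell by 2.45. Racgap1, the nearest listed protein-coding gene on the higher side and a regulator of cell division, rose by 0.74. The difference of Aqp5 was larger than that of any of the 10. Aqp5 was selected for its rise on knockdown, so nothing is read from this order. In LIFR KO all 11 were lower than in shPCBP1, as Aqp5 was, with log2 fold changes from -1.10 to -0.38 (median -0.74), and 6 passed the threshold. Over all genes the median was -0.16 and 6.47% passed in that comparison, and 701 of those 816 were lower. After the GC correction all 11 were still lower (-0.69 to -0.13, median -0.36), where the median over all genes was 0.04. Of the 11, 1 passed, Cox14 (-0.55, adjusted p = 0.0159, limma), against 0.309% of all genes. Aqp5 itself was at -0.04 in LIFR KO after the same correction. In FAM3C KO 9 of 11 were lower with a median of -0.15, and 0 passed. Over all genes the median there was -0.01 and 0.309% passed. How many of all genes were lower was not counted.

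**Figure D5:**
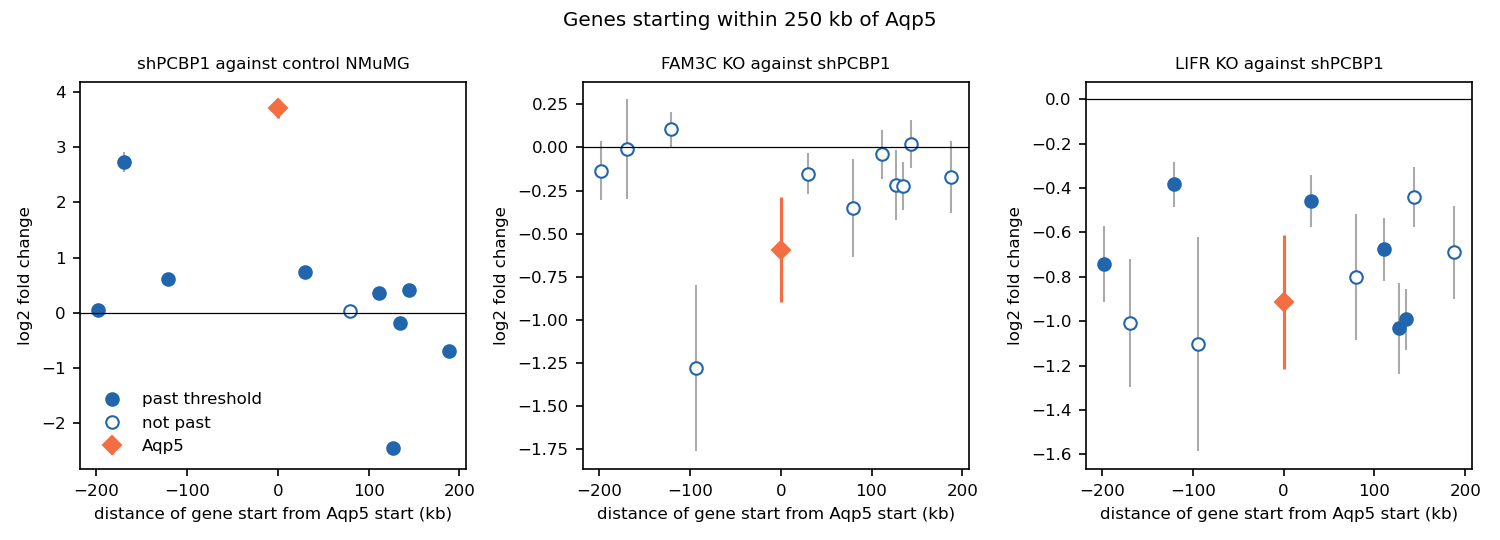
Log2 fold change (with standard error) of Aqp5 and of genes that start within 250 kb of it, against the distance between gene starts in kb, in 3 comparisons with their own vertical axes. On knockdown Aqp5 (3.70), which was selected for its rise, is above its neighbours, among which Nckap5l is at 2.73 and Gpd1 at -2.45. In LIFR KO all neighbours are below 0.

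The nearest listed genes around the other members took these values. Mindy4, 16.2 kb from Aqp1, fell by 0.99 on PCBP1 knockdown (adjusted p = 0.000117, limma), and it differed by 0.04 on the log2 scale between FAM3C KO and shPCBP1 (adjusted p = 0.98, limma), where Aqp1 differed by -3.24. On the other side, Lsm5 at 1350 kb was the nearest gene listed in the first dataset, with -0.27 in FAM3C KO and 0.39 in LIFR KO. Adam10 and Polr2m, the nearest listed genes around Aqp9 in the first dataset at 330 and 310 kb, were at 0.04 and -0.08 in FAM3C KO and at 0.22 and -0.10 in LIFR KO. Clns1a, a chloride current regulator 3.21 kb from Aqp11, rose by 0.17 on knockdown, and Pak1, 50.3 kb away on the other side, fell by 0.56. Aqp3 lies 44.6 kb from Aqp7 and 16.2 kb from Nol6, which rose by 1.04.

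The genes with the pattern most like each member were found by Pearson correlation of log2(CPM + 0.1) over the 11 libraries of the first dataset, among 12599 genes, as a description. These libraries share the groups and the differences in GC content and depth, so the correlations are not independent of either. For Aqp1 they were Padi1, a peptidylarginine deiminase (0.97), Wnk4, a kinase that controls ion cotransporters (0.96), and Axin2, a negative regulator of Wnt signalling (0.95). Padi1 was at 35.6 to 46.7 CPM in shPCBP1, 12.9 to 23.9 CPM in FAM3C KO and at 33.0, 21.8 and 14.7 CPM in the LIFR KO clones, of which clone 1 was highest, as for Aqp1. For Aqp9 they were Hoga1 (0.93), a mitochondrial aldolase, Heg1 (0.93) and Tmie (0.92). Without LIFR KO clones 2 and 3 and the double KO, these ranked 112, 303 and 157 for Aqp9, whereas the genes named for Aqp1 ranked 8, 14 and 20. Hoga1 was at 1.75 to 2.23 CPM in shPCBP1, 2.38 to 2.75 CPM in FAM3C KO and 1.37 to 1.66 CPM in LIFR KO, without overlap, and at 2.20 CPM in the double KO. For Aqp5 they were Cdca2 (0.94), Plekhg6 (0.93) and Bola3 (0.92), and for Aqp11 Elf5 (0.88), a transcription factor of mammary alveolar cells, Tspan33 (0.86) and Milr1 (0.86). In the 8 other libraries the latter 3 ranked 462, 143 and 111 for Aqp11, and those of Aqp5 ranked 9, 20 and 53. Elf5 reached at most 1.12 CPM, close to the filter. Among the members, the Pearson correlation was 0.81 between Aqp1 and Aqp5 (0.73 without LIFR KO clones 2 and 3 and the double KO). It was -0.13 between Aqp1 and Aqp9 and became -0.58 in the 8 remaining libraries.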

How the data were processed

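By the study's methods, total RNA was depleted of ribosomal RNA, sequenced in paired reads of 150 bases, and quantified by the authors in Partek Flow. The study calls the second dataset preexisting, and its text does not say whether those libraries were made the same way. The labels name Bowtie2 and DESeq as tools and GRCm38 as the build, and whether counting used strand was not given in the sources used here. The authors deposited CPM per sample. No value is 0: each library of the first dataset has a lowest value, which may stand for no reads or 1 read, and the second dataset gives 0.0001 in place of 0. The second file also holds the authors' group means and a fold change, which were not used. Gene starts equalled those of GENCODE M21 for 302 of 13870 matched genes in the first dataset and 14269 of 14795 in the second, so coordinates are those of GENCODE M21. Between 0.822 and 0.835 of the low values in the first dataset equalled a whole multiple of the lowest (within 0.02). The remaining low values were not whole multiples, so reads could not be recovered for all genes, and count models were not applied.

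The fits used log2(CPM + 0.1) and the 12621 and 11384 genes whose mean over the fitted samples reached 0.5 CPM. They were made with limma 3.58.1 (R 4.3.3), letting the prior variance follow the mean. The shPCBP1, FAM3C KO and LIFR KO lines shared 1 fit without the double KO, and calls were made at a Benjamini-Hochberg adjusted p under 0.07, the cut-off of the study. Exact permutation tests over samples were run for Aqp1 and Aqp11. The GC correction subtracted a loess curve (span 0.3) of each library's deviation from the shPCBP1 mean on gene GC content. The other alternatives were the pseudocount, the filter, the scaling, the threshold, 2 groups alone, the replicate number as a block, LIFR KO clone 1 alone and each sample left out. The procedure was tested on simulated data. Promoter sequences are from RefSeq (GRCm38.p6), and figures were drawn with matplotlib 3.10.9.

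The members and the gene lists were chosen with earlier results of these data known. Genes were named by rule: the members, the other listed aquaporins, the targeted genes, up to 4 genes past the threshold with the largest log2 fold change per list and comparison, the 3 genes most like each member, the nearest listed protein-coding gene on each side of each member, and the listed genes within 250 kb of Aqp5. The lists were other aquaporins, cell volume and osmolyte genes, glycerol handling genes, and epithelial, mesenchymal, immune, endothelial, adipocyte, erythroid, myoepithelial, and luminal and secretory markers.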

Additional observations from a re-analysis of the deposited data

Results flagged for a closer look

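The difference between the FAM3C KO and LIFR KO effects on Aqp9 was 3.07 on the log2 scale. It was noted because all FAM3C KO clones were above, and all LIFR KO clones below, the shPCBP1 lines. Aqp9 was selected for this difference, so it is a description. In the double KO, a line outside the comparisons, these genes were above all 4 shPCBP1 lines: Aqp9 at 1.50 CPM (the shPCBP1 lines reached 0.653 CPM), Aqp7 at 0.234 CPM (0.162 CPM) and Aqp8 at 0.187 CPM (0.125 CPM). The last 2 were 5 and 4 times the lowest value of the library, against at most 4 and 3 times in the shPCBP1 lines, a difference of about 1 read. Of the 7 aquaporins listed in the first dataset, 0 had a lone shPCBP1 line beyond Dixon's criterion, which chance passes in about 1 of 20 groups.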

How the results depend on the processing

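Direction and call of Aqp1 on PCBP1 knockdown held under all 11 alternatives. Members past the threshold were 2 to 3 there when each sample was left out (3 as reported). In these counts, from which nothing is read for Aqp9, that gene was not past the threshold after quantile normalization (0.30), with no filter (0.84) or without shPCBP1 replicate 1 (0.96), and it fell below the filter without shPCBP1 replicate 2 or at 1 CPM, where it has no value. With a pseudocount of 1 CPM the log2 fold changes were 2.31 for Aqp5 and 0.33 for Aqp9 on knockdown, and for Aqp9 0.69 in FAM3C KO, -0.46 in LIFR KO and 1.15 between the knockouts. Quantile normalization gave 3.37 for Aqp5 on knockdown and -1.02 for Aqp9 in LIFR KO. Leaving out single samples gave 3.49 to 3.91 for Aqp5 and 0.44 to 1.25 for Aqp9 on knockdown.

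For FAM3C KO, 1 member (Aqp1) passed with the 2 groups fitted alone (-3.24), after the GC correction (-3.19) and with clone 1 alone for LIFR KO (-3.24). Without single libraries 0 to 1 passed and Aqp1 ran from -3.84 to -2.41, with calls without LIFR KO clone 1 or 3. For LIFR KO, 0 passed, against 1 as reported, with a pseudocount of 1 CPM, a filter of 1 CPM, quantile normalization, an adjusted p under 0.05, 2 groups alone, the GC correction with or without the block, the replicate block and clone 1 alone. Without single libraries 0 to 3 passed there, and Aqp1 ran from -3.37 to -1.73, with calls without LIFR KO clone 1 or FAM3C KO clone 2, Aqp5 from -1.14 to -0.63 and Aqp9 from -1.96 to -1.53. Aqp5 in LIFR KO was -0.04 after the GC correction, 0.14 with the block added and -0.46 for clone 1 alone. Between the knockouts, 0 passed with a filter of 1 CPM, 2 groups alone, the replicate block or the GC correction with the block, and 0 to 1 without single libraries, where Aqp1 ran from -1.51 to 0.13 and Aqp5 from 0.04 to 0.55. Aqp5 between the knockouts was -0.49 after the GC correction with or without the block and -0.14 for clone 1 alone. The causes were not tested.

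The replicate block changed no other call, except that Aqp1 in FAM3C KO after the GC correction no longer passed with it (-3.14, adjusted p = 0.134, limma). Same-numbered clones deviated with correlations of -0.18 to 0.15 (0.05 in the second dataset), so the numbers did not pair the samples. Aqp11, near 0 throughout, changed sign at values of -0.003 (median-ratio rescaling, knockdown) and, in FAM3C KO, 0.018 (median-ratio rescaling), 0.009 (quantile normalization) and 0.005 (replicate block). Without single libraries it ran from -0.044 to 0.070 on knockdown, -0.085 to 0.060 in FAM3C KO, -0.069 to 0.248 in LIFR KO and -0.251 to 0.066 between the knockouts. The correlation of Elf5 with Aqp11 was 0.67 without LIFR KO clones 2 and 3 and the double KO. Depth limited Aqp9, for which LIFR KO held 2 or 5 reads in all, and no depth could be read from the values of the second dataset.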
